A study of Mus musculus with 10 samples.

Results

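DNA replication genes were taken as 37 genes named by symbol in a list of origin licensing, helicase, polymerase and nucleotide supply genes. The rule applies no threshold to measured values, but the list was drawn up with earlier results of these data known. All 37 were among the 15078 genes of the normalized count table. All 37 had a mean of at least 10 over the 10 libraries, the level required for testing, which 13644 genes reached. A normalized count is the number of reads of a gene after division by the size factor of its library, so that libraries sequenced to different depths can be compared.

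The cells were sorted from mouse bones as CD51+CD200+ stromal cells and sequenced in bulk from poly(A) RNA. Graft BM-MSCs (n = 4) were bone marrow mesenchymal stem cells from the marrow of transplanted femurs, taken 5 months after transplantation from transgenic POSTN-CRE bones after tamoxifen induction, and were also sorted for Tomato. Tomato is a red fluorescent protein that tamoxifen switched on in graft cells using the periostin (*Postn*) promoter, and it marks those cells and their descendants, whatever other cell types used that promoter during the induction. BM-MSCs (n = 3) and periosteal skeletal stem cells (P-SSCs, n = 3), from the membrane around the bone, came from wild-type, untreated host mice at steady state. Transplantation, genotype, tamoxifen and the Tomato gate all separate the graft group from the other groups and cannot be told apart. BM-MSC 2+4 and P-SSC 2+5 each combined RNA of a pair of mice and were used as 1 replicate each. The labels give no age, and mice in the study were 6 to 12 weeks old unless otherwise stated. Graft cells were taken 5 months after transplantation, so their age may differ from that of the other groups. Such a difference cannot be told apart from transplantation.

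Before a cell divides, the origin recognition complex, Cdc6 and Cdt1 load the MCM2-7 helicase onto origins of replication. Cdc45 and the GINS complex then turn the loaded ring into a moving helicase, primase and DNA polymerases copy the strands, and the Pcna clamp holds polymerases to DNA. Many of these genes are transcribed as cells pass from G1 into S phase, so that their mRNAs are commonly read together with those of mitotic genes as signs of cycling cells, and adult marrow stromal stem cells are known as mostly quiescent.

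Libraries held 15415421 to 25223295 reads. Graft libraries had more genes without a read than the others (16.9% to 32.8% of the genes tested, against 6.36% to 13.3%). Genes of over 65% GC were high relative to genes of middling GC in the 4 graft libraries and P-SSC 4 and low in the other 5, so this split and the difference between graft BM-MSCs and BM-MSCs cannot be told apart. BM-MSC 3 stood apart from BM-MSC 1 and 2+4 in the genes described here, in red cell genes and in proliferation markers, and the counts of called genes, and the values that rest most on it, are also given without it. The 7 marrow stroma markers (among them *Cxcl12* and *Lepr*) had reads in all 10 libraries, with sums of 714858 or more in marrow libraries and of 11305 or less in P-SSCs. The 6 periosteum markers summed to at least 358169 in P-SSCs. The genes of both sorting markers, *Itgav* (CD51) and *Cd200*, had reads in every library.

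BM-MSCs had the highest values of DNA replication genes. The 37 normalized counts of a library summed to 19556, 25400.1 and 46877 in BM-MSC 1, 2+4 and 3, to 10757, 10116, 10949.7 and 9883 in graft BM-MSC 1, 2, 3 and 4, and to 15142, 14889 and 10922 in P-SSC 1, 2+5 and 4. The lowest BM-MSC sum was above every graft and P-SSC sum, while graft and P-SSC sums overlapped. As a share of all reads these genes made up 1081, 1241 and 2536 ppm in BM-MSCs, 684 to 755 in graft BM-MSCs and 582 to 721 in P-SSCs. In bulk samples, fewer cells that express a gene and less of its RNA per cell cannot be told apart. The MCM2-7 subunits alone summed to 6554 to 17885 in BM-MSCs, against 2102 to 2983 in graft BM-MSCs and 2313 to 3331 in P-SSCs.

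**Figure D1:**
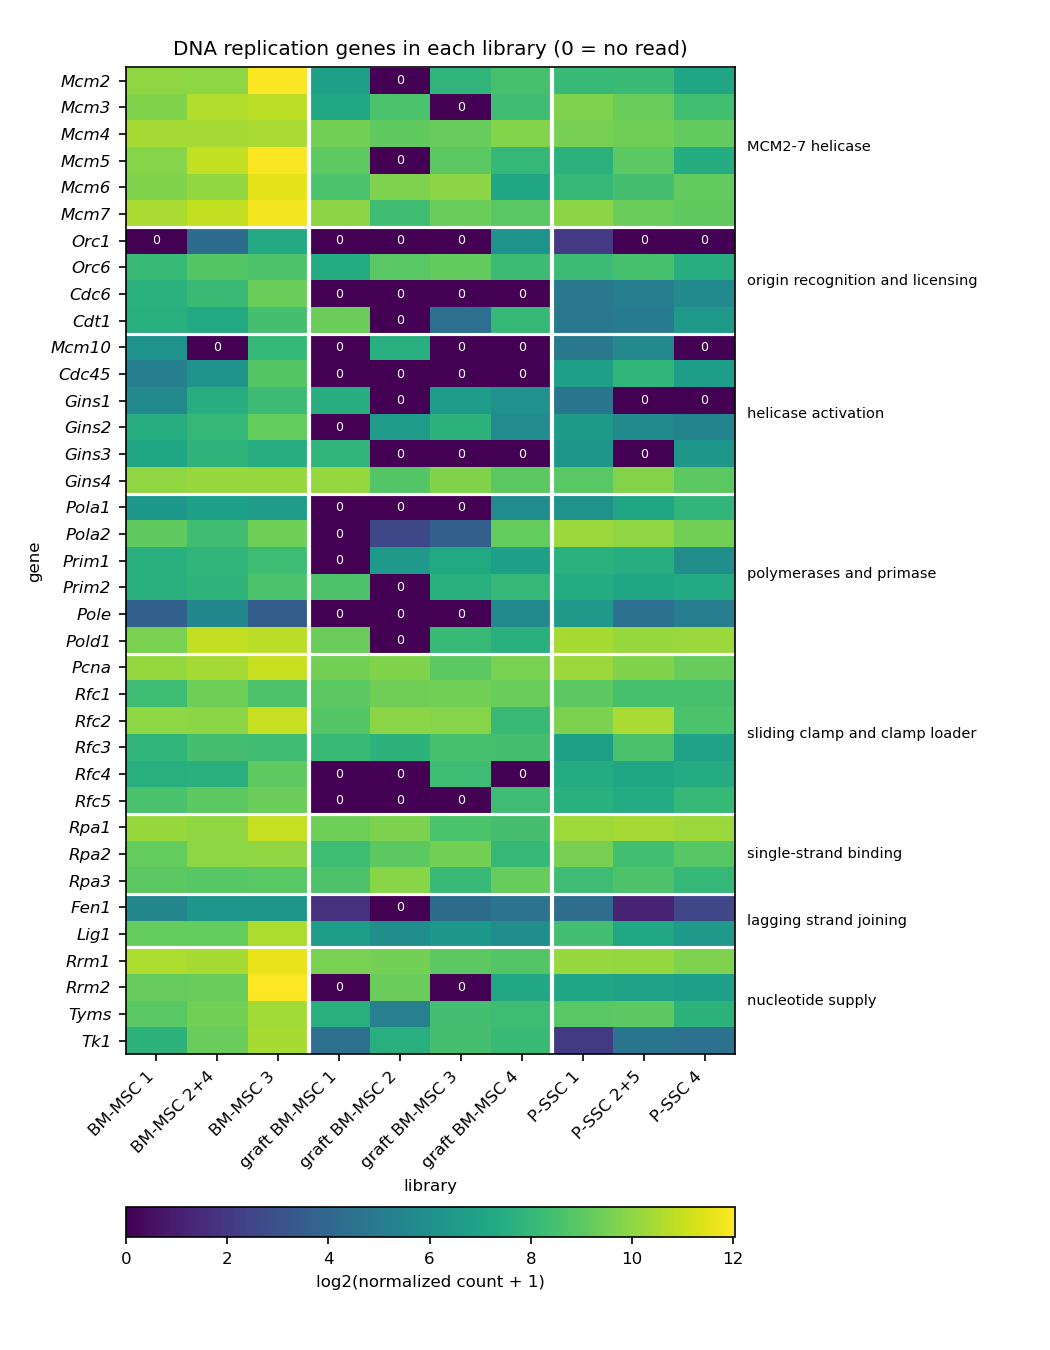
Colour gives log2(normalized count + 1) of each DNA replication gene (rows, grouped by role) in each library (columns, grouped BM-MSC, graft BM-MSC, P-SSC), and 0 marks a gene without a read. BM-MSC 3 is the brightest column, the graft columns hold most of the marks, and *Cdc6* and *Cdc45* are at 0 in all 4 graft libraries.

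Most DNA replication genes were lower in the grafts than in steady-state marrow: 35 of the 37 genes had a lower mean log2 value in graft BM-MSCs, where 64.1% of all genes tested did. The 5 that fell past the threshold of the test were *Mcm7*, *Cdc6*, *Cdc45*, *Lig1* and *Rrm1*. None rose by limma, edgeR or DESeq2, and none was higher at an unadjusted p under 0.05. They made up 13.5% of the DNA replication genes, against 5.06% of all genes tested that fell and 2.61% that rose. For 18 of the 37 genes (48.6%) every graft library was below every BM-MSC library, against 14.7% of all genes tested. The median log2 change was -2.34 over the 37 genes and -0.53 over all genes tested. Setting *Cdc6* and *Cdc45*, at 0 in every graft library, to their lower bounds could not move it, as both stay far below it. The median was -1.71 by edgeR and -1.71 by DESeq2, against -0.05 and -0.04 over all genes. Over the 16 genes with reads in all 10 libraries it was -1.07 by limma. The test was limma on log2(normalized count + 1), with p-values adjusted over all genes tested. Without BM-MSC 3, 2 of the 37 genes fell (*Cdc6* and *Cdc45*), against 2.79% of all genes, while the number that did not overlap was again 18, against 18.5% of all genes.

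P-SSCs also lay below BM-MSCs for most of these genes, with a lower mean log2 value for 33 of 37, where 49.2% of all genes did. Only *Tk1* passed the test and fell, 2.70% of the genes against 4.58% of all genes tested, and none rose, against 4.57% of all (limma, with none higher at an unadjusted p under 0.05 and none by edgeR or DESeq2). For 21 of the 37 genes (56.8%) every P-SSC library was below every BM-MSC library, against 15.8% of all genes tested. The median log2 change was -1.02, and 0.00 over all genes tested. Without BM-MSC 3 no DNA replication gene passed the limma test (4 had an unadjusted p under 0.05), edgeR and DESeq2 were not run without it, and 21 did not overlap, against 19.5% of all genes. Among the 5 libraries in which genes of high GC were low (P-SSC 1 and 2+5 against the 3 BM-MSCs), *Mcm4*, *Cdc6*, *Cdt1*, *Rfc5* and *Tk1* fell, against 7.93% of all genes tested.

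Between graft BM-MSCs and P-SSCs, 26 of the 37 genes had their lower mean log2 value in the grafts, where 60.4% of all genes did, with a median of -1.11, and -0.47 over all genes. *Cdc6*, *Cdc45*, *Pola1*, *Pola2* and *Rpa1* fell. None rose by limma (1, *Tk1*, was higher at an unadjusted p under 0.05) or edgeR, and *Tk1* rose by DESeq2. These 5 are 13.5% of the genes, near the 12.0% of all genes tested that fell, while 6.08% of all genes rose. In 7 genes (18.9%) every graft library was below every P-SSC library, against 18.5% of all genes. By edgeR, which uses another scaling and fits counts in place of mean log2 values, the median was -0.11 over the 37 genes and 0.03 over all genes tested. By limma with a pseudocount of 5 it was -0.73, and -0.35 over all genes. In genes at 0 in some graft libraries, mean log2 value and mean count can differ in direction. *Rrm2*, lower in the grafts by mean log2 value, had mean counts of 192 in graft BM-MSCs and 123 in P-SSCs. Other scalings divided the calls otherwise: with quantile normalization 3 genes fell and *Tk1* rose (of all genes, 1241 fell and 1247 rose, in place of 1634 and 830), and after a correction for GC content 4 fell and *Tk1* rose (1088 and 1243 of all genes). The 3 comparisons share libraries in pairs, so their values are given side by side and not counted as separate evidence.

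**Figure D2:**
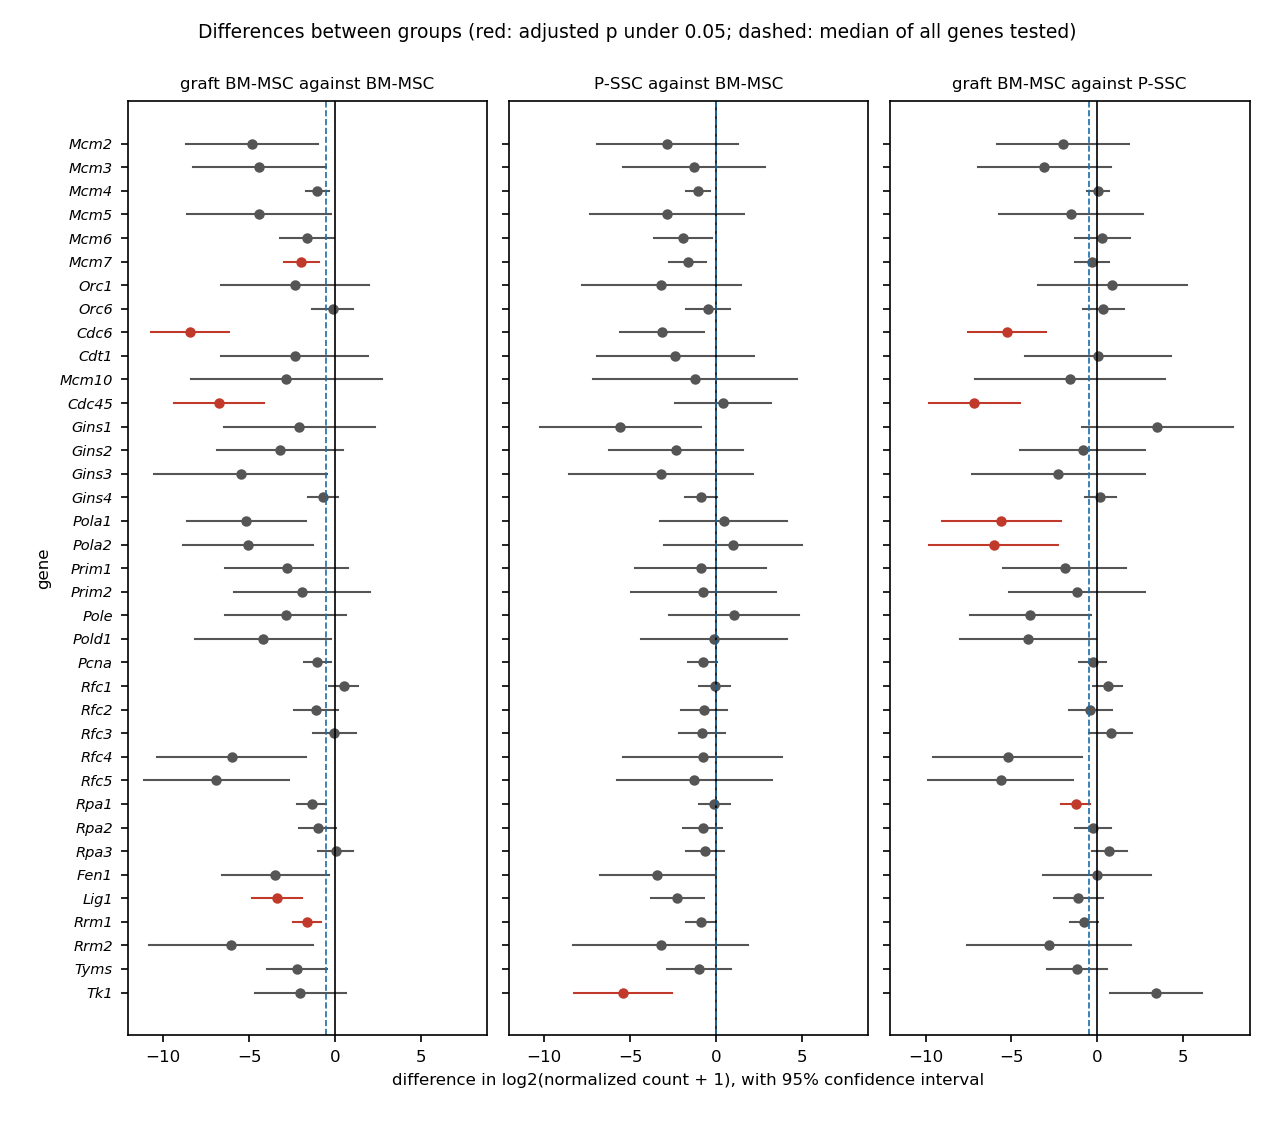
Each point is the difference of a gene's mean log2(normalized count + 1) between 2 groups with its 95% confidence interval, in 1 panel per comparison. Red marks an adjusted p under 0.05 and the dashed line the median of all genes tested, -0.53, 0.00 and -0.47 from left to right. Most points lie left of 0 in both comparisons with BM-MSCs, and the intervals of genes at 0 in some graft libraries, such as *Rfc4* and *Rfc5*, are wide.

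Promoters of these genes often hold binding motifs for E2F, the transcription factors that drive genes at the start of S phase. RefSeq windows from 250 bases before to 50 after the start of a gene were known for 30 of the 37 genes (build GRCm38.p6). A match to TTTCCCGC, TTTCGCGC, TTTGCCGC or TTTGGCGC on either strand was found for 12 of the 30 (*Mcm3*, *Mcm5*, *Mcm6*, *Mcm7*, *Orc1*, *Cdc6*, *Cdt1*, *Gins3*, *Pola1*, *Pold1*, *Rfc3* and *Lig1*), and for 2.6% of the 27025 genes with a window. CCAAT, on either strand, was in 20 of the 30 and in 41.1% of all. A match describes the letters and is not a binding site, and these counts were not tested. Of the 12 genes with an E2F match, *Cdc6*, *Mcm7*, *Pola1* and *Lig1* passed the limma test in a comparison, *Pola1* only in the grafts against P-SSCs. The other genes that passed, *Cdc45*, *Pola2*, *Rpa1*, *Rrm1* and *Tk1*, had no match. Whether a match goes with a change was not tested. In *Mcm5* and *Mcm6*, 2 of the motifs overlap by 4 bases. Shown are the stretches of *Cdc6*, *Pola1*, *Mcm5* and *Mcm6*. They are written along the strand of the gene, with the matched bases in capitals, which begin 138, 138, 153 and 110 bases before the RefSeq start. None of them touches an annotated exon. The RefSeq start of *Cdc6* lies downstream of the earliest start that GENCODE, used for gene positions here, gives for this gene, so its stretch lies within the span of the gene given below, between exons of its longer transcripts.
Cdc6 (chr11:98907987-98908046, + strand): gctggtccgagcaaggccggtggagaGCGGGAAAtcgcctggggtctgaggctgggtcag
Pola1 (chrX:93632260-93632319, - strand): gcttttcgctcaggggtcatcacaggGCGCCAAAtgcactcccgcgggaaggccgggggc
Mcm5 (chr8:75109330-75109393, + strand): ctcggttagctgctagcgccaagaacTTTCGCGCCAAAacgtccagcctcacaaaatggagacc
Mcm6 (chr1:128359778-128359841, - strand): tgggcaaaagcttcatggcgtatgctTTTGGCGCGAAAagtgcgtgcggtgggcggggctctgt

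The 6 subunits of the MCM2-7 ring, which unwinds DNA at the fork, were all lower on average in graft BM-MSCs and in P-SSCs than in BM-MSCs. *Mcm7* (ENSMUSG00000029730, chr5:138164583-138172422, - strand, GRCm38) had the highest mean of the 6. Its normalized counts were 1469, 1934 and 3609.8 in BM-MSC 1, 2+4 and 3, 973, 328, 632 and 489 in graft BM-MSC 1, 2, 3 and 4, and 999, 618 and 539 in P-SSC 1, 2+5 and 4. All graft and P-SSC libraries were below all BM-MSC libraries, and graft and P-SSC values overlapped. The mean was 2338 ± 1126 (SD, n = 3) for BM-MSCs and fell to 605 ± 275 (SD, n = 4) for the grafts, a log2 difference of -1.95 (limma SE 0.45, adjusted p = 0.0287), and was 719 ± 246 (SD, n = 3) for P-SSCs (log2 change of -1.65, limma adjusted p = 0.0634 against BM-MSCs). Without BM-MSC 3 the BM-MSC mean was 1702 and the graft log2 difference -1.59 (limma adjusted p = 0.131). The call in graft BM-MSCs was lost without BM-MSC 3, BM-MSC 2+4 or graft BM-MSC 4 and after the GC correction.

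*Mcm4* differed least between libraries of a group, with 1361 to 1445 in BM-MSCs, 539.7 to 900.2 in graft BM-MSCs and 559 to 752 in P-SSCs, and both differences from BM-MSCs had an unadjusted p under 0.05 but not an adjusted one (limma adjusted p = 0.0604 and 0.0603). *Mcm2*, *Mcm3* and *Mcm5* were at 0 in 1 graft library each and between 115 and 524 in the others, whereas BM-MSCs held 877 to 4039. Their log2 changes in graft BM-MSCs against BM-MSCs were -4.85, -4.40 and -4.41, with 95% confidence intervals that did not reach 0 and limma adjusted p of 0.116, 0.147 and 0.176. *Mcm6* ranged from 136 to 992 in graft BM-MSCs, which overlapped the BM-MSC range of 861 to 2961. In P-SSCs all 6 lay below every BM-MSC library, with log2 changes of -2.86 to -1.07. Per kilobase of exon, mean levels of the 6 subunits spanned 291 (*Mcm2*) to 579 (*Mcm5*) normalized counts in BM-MSCs, 25.6 (*Mcm2*) to 194 (*Mcm4*) in graft BM-MSCs and 33.7 (*Mcm2*) to 186 (*Mcm4*) in P-SSCs.

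Of the licensing genes, *Cdc6* (ENSMUSG00000017499, chr11:98907801-98923940, + strand, GRCm38), which recruits the helicase to the origin and whose promoter stretch is shown above, fell the most in graft BM-MSCs, against both other groups. It had 207, 296 and 640.1 normalized counts in BM-MSC 1, 2+4 and 3, 27.0, 35.7 and 53.3 in P-SSC 1, 2+5 and 4, and no read in any of the 4 graft libraries. The groups did not overlap, with BM-MSCs highest, P-SSCs between and graft BM-MSCs at 0. The log2 difference of -8.41 (limma SE 1.02, adjusted p = 0.00189) against BM-MSCs and the log2 difference of -5.26 (limma SE 1.02, adjusted p = 0.00496) against P-SSCs depend on the pseudocount of 1. Against a floor of 3 reads per graft library, graft *Cdc6* was at least 155-fold below BM-MSCs (at least 102-fold without BM-MSC 3, with a log2 difference of -7.96 and limma adjusted p = 0.00791) and at least 15.7-fold below P-SSCs. These bounds cover counting error only. Of the 37 genes, 15 were at 0 in at least 1 graft library and over 100 in another. Between P-SSCs and BM-MSCs, a log2 difference of -3.16 (limma SE 1.09, adjusted p = 0.118) did not pass. Both graft calls were kept when any single library was left out.

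*Orc6*, a subunit of the origin recognition complex, had the highest mean of the licensing genes and overlapped between all groups, with 287, 471 and 405 in BM-MSCs, 169, 501, 568 and 306 in graft BM-MSCs and 299, 373 and 181 in P-SSCs. Its log2 change in graft BM-MSCs was -0.13 against BM-MSCs (95% confidence interval -1.32 to 1.07). *Orc1*, the largest subunit, had few reads: 0, 17.9 and 163 in BM-MSCs, 69.9 in graft BM-MSC 4 and 0 in the other graft libraries, and at most 3.12 (3 reads) in P-SSCs. Part of its exons (10.8% of the length) lies opposite the gene *Gm12743*. *Cdt1*, which works with Cdc6 in loading, spanned 0 to 654 in graft BM-MSCs, a wider range than the 156 to 356 of BM-MSCs or the 27.0 to 91.1 of P-SSCs, and P-SSCs lay below BM-MSCs.

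Among the genes that activate the helicase, *Cdc45* (ENSMUSG00000000028, chr16:18780447-18811987, - strand, GRCm38), a subunit of the active helicase, changed in graft BM-MSCs against both other groups. It had 35.5, 72.8 and 472 normalized counts in BM-MSC 1, 2+4 and 3, 110.1, 239 and 108 in P-SSC 1, 2+5 and 4, and no read in the 4 graft libraries. P-SSCs lay within the range of BM-MSCs (0.40, 95% confidence interval -2.41 to 3.20), and both were above every graft library. Against the floor of 3 reads per library the fall was at least 78.7-fold from BM-MSCs and at least 62.0-fold from P-SSCs, with a log2 difference of -6.76 (limma SE 1.18, adjusted p = 0.00831) and a log2 difference of -7.16 (limma SE 1.18, adjusted p = 0.00193). Without BM-MSC 3, which held most of the *Cdc45* of its group, the bound against BM-MSCs was 22.02-fold and the log2 difference -5.70 (limma adjusted p = 0.0314). Leaving out any single library kept both calls. With 3 reads as the floor, each graft library could have shown 0.119 to 0.195 ppm of its reads, counting error only.

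*Gins4* was the highest of the 4 GINS subunits and of all 37 genes per kilobase of exon (833, 548 and 470 normalized counts per kilobase in BM-MSCs, graft BM-MSCs and P-SSCs). Its values were 1044, 1148 and 1177 in BM-MSCs, 1132, 453, 861 and 511 in graft BM-MSCs and 499, 887 and 515 in P-SSCs. P-SSCs were below BM-MSCs in every library, while graft BM-MSC 1 lay within the range of BM-MSCs. The other GINS subunits did not follow it. *Gins1* was 49.1, 181 and 304 in BM-MSCs, 181, 0, 96.7 and 68.2 in graft BM-MSCs and 24.9, 0 and 0 in P-SSCs. *Gins3* had reads in graft BM-MSC 1 only (241) and in 2 of 3 P-SSC libraries (83.1 and 82.4), against 136 to 228 in BM-MSCs. *Gins2* ran from 0 to 221 in graft BM-MSCs, 41.7 to 94.5 in P-SSCs and 182 to 586 in BM-MSCs, but 67.3% of its exonic length lies opposite *Gse1*, and its reads may be shared. *Mcm10*, which helps to start the fork, was at 0 in 5 of the 10 libraries, and its highest value in each group was 254 in BM-MSCs, 186 in graft BM-MSCs and 49.7 in P-SSCs.

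By mean log2 values, the polymerase and primase genes were the group in which graft BM-MSCs were lowest relative to P-SSCs. All 6 log2 changes were below 0, with a median of -3.97, against -1.11 over the 37. Each of the 6 was at 0 in at least 1 graft library, which lowers a mean log2 value strongly. The mean normalized count of *Prim2* was higher in graft BM-MSCs (217) than in P-SSCs (155). *Pola1* (ENSMUSG00000006678, chrX:93304767-93632155, - strand, GRCm38) and *Pola2* (ENSMUSG00000024833, chr19:5940542-5964202, - strand, GRCm38), the catalytic and an accessory subunit of polymerase alpha, which starts each new strand, both fell. *Pola1* was 0, 0, 0 and 55.2 in graft BM-MSC 1, 2, 3 and 4, 69.6, 135 and 238 in P-SSC 1, 2+5 and 4 and 83.5, 109 and 101 in BM-MSC 1, 2+4 and 3. *Pola2* was 0, 5.06, 12.1 and 580.0 in graft BM-MSC 1, 2, 3 and 4, 1197, 1057 and 706 in P-SSCs and 556, 321 and 672 in BM-MSCs. In both genes graft BM-MSC 4 was the high graft library, still below every P-SSC, and for *Pola2* it lay within the range of BM-MSCs. P-SSCs had more *Pola2* than any BM-MSC library, the only member with no overlap in that direction (15.1% of all genes tested), although the difference did not pass (limma adjusted p = 0.961). The fall against P-SSCs was a log2 difference of -5.59 (limma SE 1.57, adjusted p = 0.0323) for *Pola1* and a log2 difference of -6.04 (limma SE 1.70, adjusted p = 0.0328) for *Pola2*, and each was lost when any of 6 libraries was left out in turn, of the 7 in both groups. Graft BM-MSC 4 was the exception.

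*Pold1*, the catalytic subunit of polymerase delta, had the highest mean of this group, with 621, 0, 279 and 199 in graft BM-MSC 1, 2, 3 and 4, 1417, 1167 and 1198 in P-SSCs and 776, 1932 and 1761 in BM-MSCs. Every graft library was below both other groups, which overlapped. The log2 change was -4.03 against P-SSCs and -4.17 against BM-MSCs, with limma adjusted p of 0.145 and 0.177. *Pole*, the catalytic subunit of polymerase epsilon, was low throughout (at most 86.2) and at 0 in 3 graft libraries. The primase subunits *Prim1* and *Prim2* were at 0 in 1 graft library each and reached 159 and 411 in the others. *Prim1* graft values lay below the BM-MSC range of 199 to 317, and *Prim2* graft values spanned the BM-MSC range of 197 to 389.6.

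Of Pcna, the sliding clamp, and the 5 subunits of its loader (replication factor C), none passed in any comparison. Their log2 changes in graft BM-MSCs against BM-MSCs ran from -6.90 (*Rfc5*) to 0.52 (*Rfc1*), with a median of -1.07. *Pcna* was 1123, 1368 and 2059 in BM-MSC 1, 2+4 and 3, 727, 868, 516 and 791 in graft BM-MSC 1, 2, 3 and 4 and 1204, 862 and 601 in P-SSC 1, 2+5 and 4. All graft libraries were below all BM-MSC libraries, and P-SSC 1 lay within the BM-MSC range. The log2 change in graft BM-MSCs was -1.04 against BM-MSCs (95% confidence interval -1.83 to -0.26, limma adjusted p = 0.105) and -0.26 against P-SSCs (95% confidence interval -1.05 to 0.52). *Rfc1*, the large subunit of the loader, was the only member in which every graft library (519.8 to 710.0) was above every P-SSC library (372 to 516), as in 8.06% of all genes tested, and it overlapped with BM-MSCs (314 to 669).

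*Rfc4* and *Rfc5* had reads in a single graft library each (314 in graft BM-MSC 3 and 314 in graft BM-MSC 4), against 185 to 535 and 387 to 635 in BM-MSCs, log2 changes of -6.01 and -6.90 (limma adjusted p = 0.0910 and 0.0540). Of their exonic length, 12.7% lies opposite *Eif4a2* and 10.7% opposite *Wsb2*. All graft values of *Rfc2* (286 to 971) were below those of BM-MSCs (993 to 2026), and P-SSCs (398 to 1479) overlapped with both. *Rfc3* overlapped between all 3 groups (218 to 375, 112 to 382 and 243 to 359.6 in graft BM-MSCs, P-SSCs and BM-MSCs).

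Replication protein A coats single-stranded DNA, and its large subunit *Rpa1* (ENSMUSG00000000751, chr11:75298166-75348324, - strand, GRCm38) was lower in graft BM-MSCs than in both other groups. It had 666, 818, 394 and 362 normalized counts in graft BM-MSC 1, 2, 3 and 4, 1227, 1374 and 1189 in P-SSC 1, 2+5 and 4 and 1155, 1068 and 2015 in BM-MSC 1, 2+4 and 3. No graft library reached the lowest of the others, and P-SSCs lay within the range of BM-MSCs. The mean was 1264 ± 97.9 (SD, n = 3) for P-SSCs and fell to 559.9 ± 219 (SD, n = 4) for the grafts, a log2 difference of -1.25 (limma SE 0.38, adjusted p = 0.0436). Against BM-MSCs there was a log2 difference of -1.36 (limma SE 0.38, adjusted p = 0.0559), which did not pass. The P-SSC call was lost in 15 of 21 alternative settings, among them each P-SSC library left out and centring on the median of all genes. *Rpa2* and *Rpa3*, the smaller subunits, overlapped between graft BM-MSCs and both other groups, with 266 to 729 and 288 to 964 in graft BM-MSCs, 334 to 763 and 254 to 408 in P-SSCs, and 579 to 1045 and 481 to 521 in BM-MSCs.

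*Lig1* (ENSMUSG00000056394, chr7:13277283-13311433, + strand, GRCm38), the ligase that joins fragments of the lagging strand, fell in graft BM-MSCs. It was 102, 62.4, 84.6 and 63.0 in graft BM-MSC 1, 2, 3 and 4, 591, 591 and 1483 in BM-MSC 1, 2+4 and 3 and 342, 149 and 90.1 in P-SSC 1, 2+5 and 4. Graft and P-SSC libraries were all below BM-MSCs, and P-SSC 4 fell within the graft range. The mean was 888 ± 515 (SD, n = 3) for BM-MSCs and fell to 78.1 ± 19.1 (SD, n = 4) for the grafts, a log2 difference of -3.38 (limma SE 0.65, adjusted p = 0.0131), which was lost without BM-MSC 3 (BM-MSC mean 591, log2 difference -2.94, limma adjusted p = 0.0801). P-SSCs, at 194 ± 132 (SD, n = 3), did not pass against BM-MSCs (limma adjusted p = 0.0748). *Fen1*, the nuclease that trims these fragments, was low (at most 23.3 in graft BM-MSCs, 18.7 in P-SSCs and 82.8 in BM-MSCs), and 78.8% of its exonic length lies opposite *Gm10143*, so its value is uncertain.

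The 4 genes of nucleotide supply had their highest value in BM-MSC 3. *Rrm1* (ENSMUSG00000030978, chr7:102441695-102469771, + strand, GRCm38), the large subunit of ribonucleotide reductase, was 1497, 1414 and 3162 in BM-MSC 1, 2+4 and 3, 1168, 1106 and 843 in P-SSC 1, 2+5 and 4 and 783, 745, 509 and 453 in graft BM-MSC 1, 2, 3 and 4. The 3 groups did not overlap, with BM-MSCs highest and graft BM-MSCs lowest. The fall in graft BM-MSCs against BM-MSCs was a log2 difference of -1.64 (limma SE 0.37, adjusted p = 0.0256), lost without BM-MSC 3 (BM-MSC mean 1455, log2 difference -1.26, limma adjusted p = 0.107), without BM-MSC 1 and after the GC correction. Neither difference from P-SSCs passed (limma adjusted p = 0.178 for graft BM-MSCs and 0.265 for BM-MSCs). *Rrm2*, the small subunit, which is made in S phase, was 609.9, 619 and 4205 in BM-MSCs, 0, 626, 0 and 143 in graft BM-MSCs and 139, 122 and 109 in P-SSCs, so that BM-MSC 3 held 6.84 times the mean of the other BM-MSC libraries.

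*Tk1* (ENSMUSG00000025574, chr11:117815526-117826092, - strand, GRCm38), the thymidine kinase of S phase, was the only member that fell in P-SSCs against BM-MSCs. It was 3.12, 24.2 and 22.3 in P-SSC 1, 2+5 and 4, 220.4, 619 and 1389 in BM-MSC 1, 2+4 and 3 and 20.9, 184, 362 and 274 in graft BM-MSC 1, 2, 3 and 4. Every P-SSC value was below every BM-MSC value, and only graft BM-MSC 1 came down to the P-SSC range. The BM-MSC mean was 743 ± 594 (SD, n = 3), the P-SSC mean 16.5 ± 11.7 (SD, n = 3), with a log2 difference of -5.42 (limma SE 1.28, adjusted p = 0.0227), and the call was lost without BM-MSC 3 (BM-MSC mean 419.7, log2 difference -4.79, limma adjusted p = 0.123), BM-MSC 2+4 or P-SSC 1. Graft BM-MSCs, at 210.0 ± 145 (SD, n = 4), had a log2 change of 3.40 against P-SSCs that did not pass (limma adjusted p = 0.0763) and of -2.02 against BM-MSCs (limma adjusted p = 0.319). *Tyms*, the thymidylate synthase, spanned 493 to 1338 in BM-MSCs, 217 to 511 in P-SSCs and 37.1 to 343 in graft BM-MSCs, all of the last below every BM-MSC library (limma adjusted p = 0.114).

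**Figure D3:**
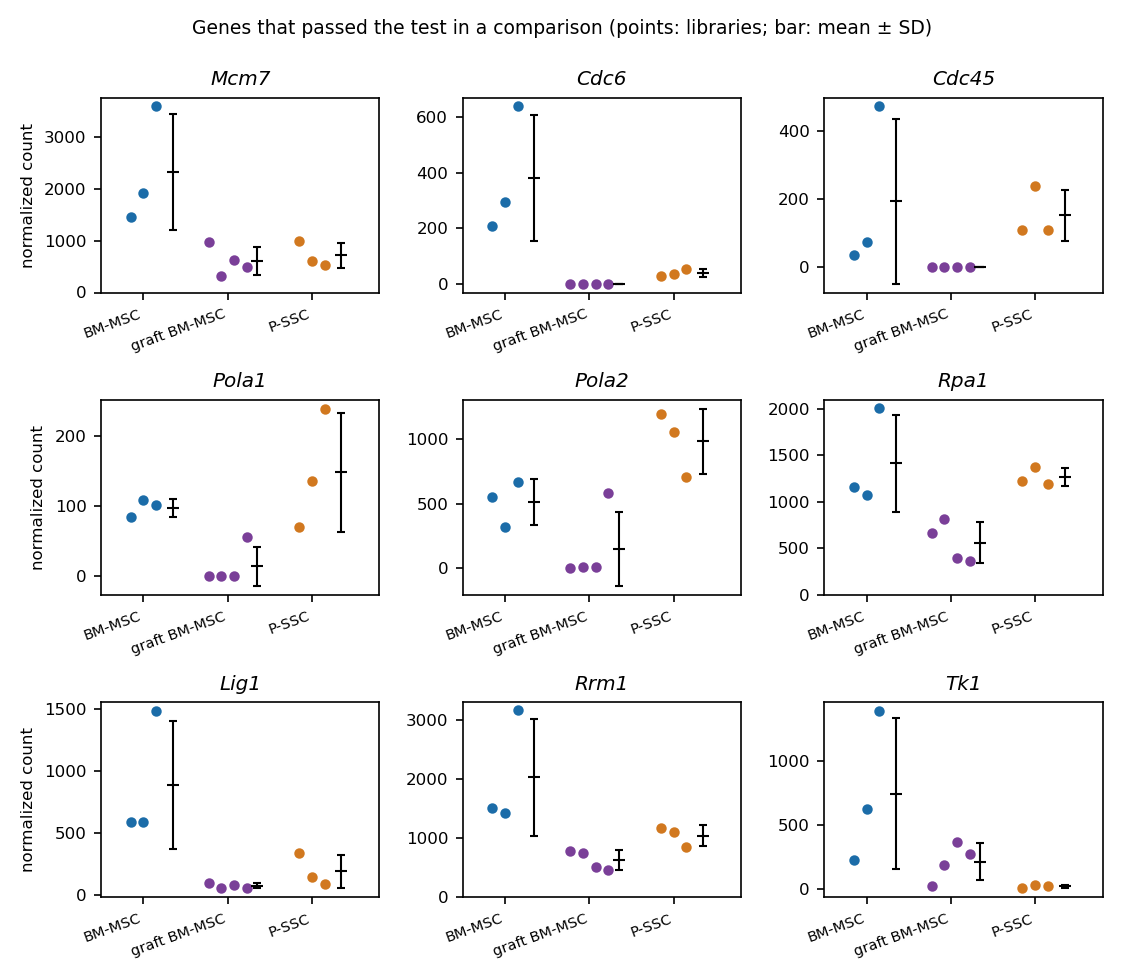
Points are the normalized counts of single libraries for the 9 DNA replication genes that passed the test in a comparison, with the mean ± SD of each group beside them (n = 3 BM-MSC, 4 graft BM-MSC and 3 P-SSC libraries). BM-MSC 3 is the highest point for *Mcm7*, *Cdc6*, *Cdc45*, *Rpa1*, *Lig1*, *Rrm1* and *Tk1*, and graft BM-MSC 4 is the 1 raised graft point for *Pola1* and *Pola2*.

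Graft libraries lacked reads of many genes, DNA replication genes among them. Of the 37 genes, 12, 15, 10 and 5 had no read in graft BM-MSC 1, 2, 3 and 4 (32.4%, 40.5%, 27.0% and 13.5%, against 21.0%, 32.8%, 24.5% and 16.9% of all genes tested). At most 1 was missing in a BM-MSC library (2.70%, against 6.36% to 9.99% of all genes tested) and at most 3 in a P-SSC library (8.11%, against 8.28% to 13.3%). In all, 21 genes were at 0 in at least 1 graft library, and 15 of these had over 100 normalized counts in another graft library. Of the 21, *Cdc6* and *Cdc45* were at 0 in all 4 graft libraries, 7 (*Orc1*, *Mcm10*, *Gins3*, *Pola1*, *Pole*, *Rfc4* and *Rfc5*) in 3, *Rrm2* in 2 and 11 in 1, among them *Mcm2*, *Mcm5* and *Pold1* in graft BM-MSC 2 and *Mcm3* in graft BM-MSC 3. The cause of these zeros was not tested. The 16 genes with reads in all 10 libraries had a median log2 change against BM-MSCs of -1.07 in the grafts (14 of 16 below 0) and of -0.84 in P-SSCs (16 of 16), and of -0.10 between grafts and P-SSCs (8 of 16).

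**Figure D4:**
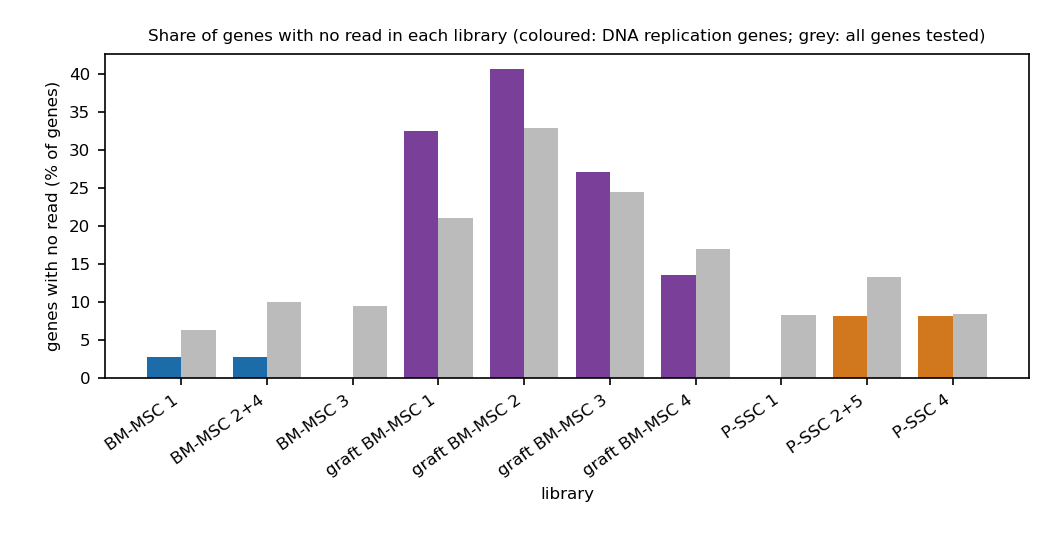
Bars give the share of genes without a read in each library, in percent, for the 37 DNA replication genes (coloured by group) and for all genes tested (grey). The 4 graft libraries have the tallest bars, 13.5% to 40.5% of the DNA replication genes, and BM-MSC 3 and P-SSC 1 have none of these genes at 0.

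BM-MSC 3 was the highest of the 3 BM-MSC libraries for 29 of the 37 genes (78.4%), against 31.8% of all genes tested, and its values were at the median 1.84 times the mean of BM-MSC 1 and 2+4, against 0.95 over all genes. The ratio reached 18.2 for *Orc1*, 8.73 for *Cdc45*, 7.17 for *Mcm10* and 6.84 for *Rrm2*, and was 0.36 for *Pole*. All 9 red cell genes in the table and all 5 proliferation markers were higher in the same library, at a median of 3.76 and 5.28 times the mean of the other 2. The 10 neutrophil genes were divided, with 6 higher and 4 lower (*Elane*, *Mpo*, *Prtn3* and *Ctsg*, the genes of granule proteins of early precursors) and a median of 1.43. Of the 8 macrophage genes 7 were lower, with a median of 0.33, and the 7 marrow stroma markers had a median of 0.90. The sorting gate that the study describes for these stromal cells is set to exclude CD45+ and Ter119+ blood cells. Genes of red cells and of neutrophils had reads in every library. The part of other cells in the values of DNA replication genes was not tested.

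**Figure D5:**
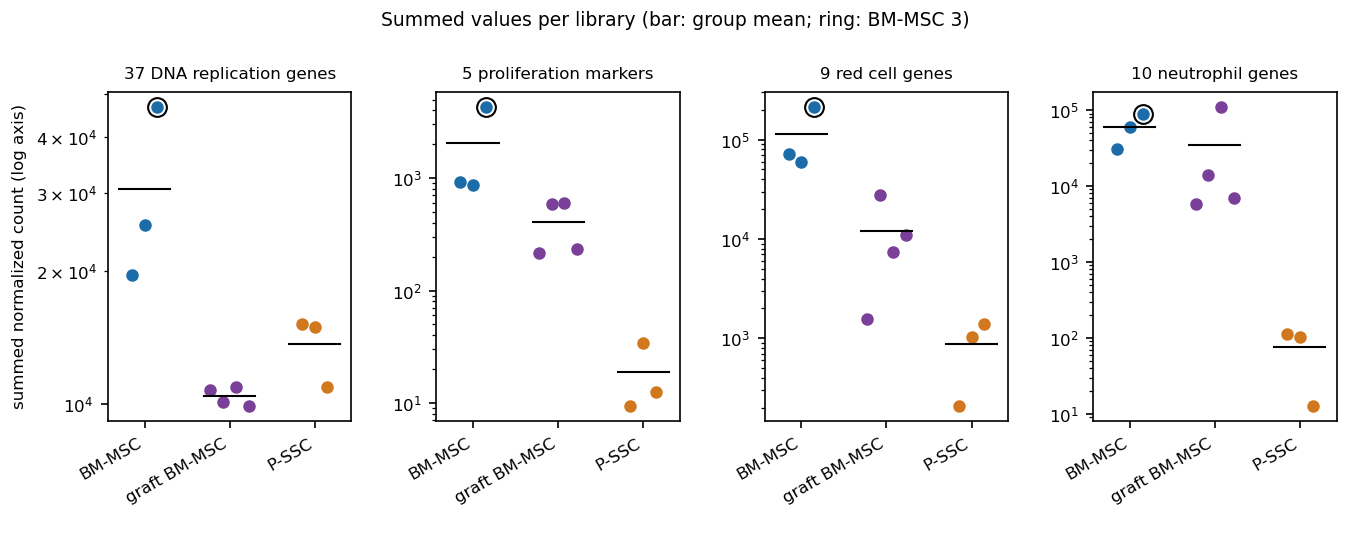
Points are summed normalized counts of single libraries, on log axes, for the 37 DNA replication genes, the 5 proliferation markers, the 9 red cell genes and the 10 neutrophil genes, with the mean of each group as a bar and a ring around BM-MSC 3. BM-MSC 3 is the highest library for the first 3 lists, and P-SSCs are the lowest group for all but the DNA replication genes.

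Markers of proliferation and of blood cells moved with the groups too. The 5 proliferation markers all had reads in each BM-MSC library and summed to 864 to 4308, against 215 to 600.2 in graft BM-MSCs (1 to 3 markers with reads) and 9.35 to 34.4 in P-SSCs (1 or 2 markers). *Mki67*, which encodes the Ki-67 antigen of cycling cells, was 51.2, 86.5 and 370 in BM-MSC 1, 2+4 and 3 and had no read in any graft or P-SSC library. Against the floor of 3 reads, counting error only, it was lower by at least 68.8-fold in the grafts and at least 51.5-fold in P-SSCs. Without BM-MSC 3 these bounds were 28.0-fold and 21.0-fold. The other markers had reads in some graft libraries. *Ccnb1* was 303, 151 and 1198 in BM-MSCs, 160, 0, 286 and 230 in graft BM-MSCs and 0, 1.27 and 0 in P-SSCs. *Birc5* was 196, 302 and 1127 in BM-MSCs, 54.8, 0, 68.5 and 3.45 in graft BM-MSCs and 0, 33.1 and 12.6 in P-SSCs. *Cdk1* was 237, 219 and 755 in BM-MSCs, 0, 0, 246 and 2.59 in graft BM-MSCs and 9.35, 0 and 0 in P-SSCs. *Top2a*, a topoisomerase of S phase and mitosis, was 139, 105 and 857 in BM-MSCs, 589 in graft BM-MSC 2 and 0 in all other graft and P-SSC libraries. Graft BM-MSC 2 was also the graft library with the most *Mcm10* and *Rrm2*. However, it had reads of only 1 of the 5 proliferation markers. It also had the lowest MCM2-7 sum of all libraries (2102) and the most DNA replication genes at 0 (15 of the 37).

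The 9 red cell genes summed to 59297 to 213622 in BM-MSCs, 1566 to 27755 in graft BM-MSCs and 208 to 1407 in P-SSCs, with *Slc4a1* and *Epb42* at 0 in all graft and P-SSC libraries. The 10 neutrophil genes summed to 30765 to 87799.7 in BM-MSCs, 5720 to 110509 in graft BM-MSCs and 12.6 to 114 in P-SSCs. Macrophage genes (8) summed to 4618 to 16704, 1446 to 13299 and 455 to 2632 in the same order, B lymphocyte genes (4 of 6 in the table) to 90.9 to 276, 0 to 178 and 14.5 to 39.7, genes of all blood cells (3) to 1681 to 2610.1, 209 to 2105 and 0.97 to 76.9, and endothelial genes (4 of 6) to 51.3 to 330.1, 0 to 128 and 3426 to 7106. The endothelial sums of P-SSCs were mostly *Tek*, at 6869, 4820 and 3254 in P-SSC 1, 2+5 and 4. In P-SSCs *Emcn* had no read, *Cdh5* was 2.08 to 58.6 and *Esam* 157 to 334. P-SSCs had the lowest sums of red cell and neutrophil genes, while their DNA replication sums (10922 to 15142) overlapped with those of graft BM-MSCs (9883 to 10949.7). Their part in the differences of DNA replication genes was not tested.

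A further 62 genes of replication and the G1/S transition (helper factors of licensing, further polymerase subunits, checkpoint and chromatin assembly genes, nucleotide enzymes, E2F factors and G1/S cyclins) were tested beside the 37. In graft BM-MSCs against BM-MSCs 4 fell (6.45%, against the 5.06% of all genes) and none rose by limma (3 were higher at an unadjusted p under 0.05), with a median log2 change of -1.92. In the same comparison edgeR called 1 of the 62, lower (1.61%, against 1.59% of all genes). DESeq2 called 11, of which 8 were lower (12.9%, against 7.54%) and 3 higher (4.84%, against 6.73%). Without BM-MSC 3 limma called 1, lower (1.61%, against 2.79%). The 4 were *Chtf18* and *Atad5*, which load and unload the clamp, *E2f2*, an activating E2F, and *Uhrf1*, which keeps DNA methylation at the fork. *Chtf18*, *Atad5* and *E2f2* had no read in any graft library and *Uhrf1* 1 read in 1 of them, against 81.2 to 248, 21.9 to 273, 73.8 to 146 and 254 to 1223 in BM-MSCs. In P-SSCs against BM-MSCs 3 fell, 4.84% against the 4.58% of all genes (*Timeless*, a fork protection gene, *Atad5* and *E2f8*, a repressing E2F) and none rose, with a median of -0.62 (limma, with none higher at an unadjusted p under 0.05 and none by edgeR or DESeq2). Without BM-MSC 3 limma called none of them there, with 6 at an unadjusted p under 0.05. In graft BM-MSCs against P-SSCs 3 fell (*Pold2*, a polymerase delta subunit, *Uhrf1* and *E2f7*, a repressing E2F) and *Timeless* rose, with a median of -0.75. The 3 are 4.84% of the 62, below the 12.0% of all genes that fell, and the 1 that rose is 1.61%, against 6.08%. For this comparison edgeR called 1, lower (1.61%, against 6.90% of all genes). DESeq2 called 12, of which 7 were lower (11.3%, against 12.5%) and 5 higher (8.06%, against 8.80%). *E2f8* had no read in P-SSCs and 38.6 to 244 in BM-MSCs, *E2f7* none in graft BM-MSCs and 25.5 to 96.6 in P-SSCs, and *Pold2* was 632 to 1003 in graft BM-MSCs and 1209.7 to 2805 in P-SSCs.

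*Timeless* was 489, 314 and 831 in BM-MSCs, 279, 588, 121 and 471 in graft BM-MSCs and 48.8, 28.0 and 0 in P-SSCs. Its rise in the grafts against P-SSCs was 4.79 on the log2 scale (SE 1.27, limma adjusted p = 0.0259). *E2f1*, the E2F factor that drives entry into S phase, went the other way from most members, at 539, 549 and 569 in P-SSCs, 0, 79.1 and 54.2 in BM-MSCs and 11.3, 0, 295 and 340.1 in graft BM-MSCs. Its P-SSC values were above every other library, but the difference did not pass (log2 change of 5.07 against BM-MSCs, 95% confidence interval -0.11 to 10.26, limma adjusted p = 0.281). *Gmnn* encodes geminin, which holds Cdt1 in check and is made from S phase to mitosis. It was 168, 299.5 and 539 in BM-MSCs, 20.8, 20.4 and 7.75 in P-SSCs and 0, 10.1, 0 and 102 in graft BM-MSCs, with no overlap between BM-MSCs and either other group (limma adjusted p = 0.0690 for graft BM-MSCs and 0.223 for P-SSCs).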

How the data were processed

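RNA of sorted CD51+CD200+ cells was sequenced in 10 libraries. The methods of the study name STAR 2.6.1d and GRCm38, whereas the submitters' processing notes list FastQC 0.11.5, cutadapt 1.15, STAR 2.5, featureCounts (Subread 1.4.6), DESeq2 1.26.0 and GRCm39; annotation and strand setting are not given in the sources used here. The deposited signal values are read counts divided by a size factor of each library by the authors. Each library's values were whole multiples of the value of 1 read, which gave back whole reads for 100% of values (tolerance 0.01 reads). Reads carry no molecular identifiers, so floors cover counting error only. Labels do not say that replicates are separate cultures or cages, and p-values measure the spread between these samples.

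Values were analysed as log2(value + 1), which understates changes of genes that are low in every library. Where a group mixes zeros with high values, the change in mean log2 value can far exceed the change in mean count. *Cdt1* had means of 234 in graft BM-MSCs and 235 in BM-MSCs, but a log2 change of -2.34. A gene was tested where its mean reached 10, with limma 3.58.1 in R 4.3.3 (empirical Bayes with a trend, 1 mean per group over all 10 libraries, two-sided, Benjamini-Hochberg adjustment over 13644 genes, threshold 0.05). Alternatives were other pseudocounts and filters, median centring, quantile normalization, a GC correction, the GC split as covariate, an adjusted p under 0.01, fits of 2 groups, each library left out, a replicate block, and edgeR 4.0.16 and DESeq2 1.42.0 on the recovered reads. Counts of genes that did not overlap with a library left out, and fold bounds without BM-MSC 3, were added after seeing the data. The fits were tested on simulated data. Gene positions, exon lengths, overlaps and GC content came from GENCODE M21 (GRCm38), which held 15052 of the IDs, and promoters from RefSeq. Without a known strand setting, reads of genes that overlap on opposite strands cannot be told apart.

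The 37 genes are set by symbol and not by a threshold on values, but they, the further pathway genes and the marker lists were chosen with earlier results of these data known. Named were all 37 genes, with values in every library for those that passed a test and for the highest of each role, further pathway genes that passed, *E2f1*, *Gmnn* and the 5 proliferation markers. Values of other genes were given in full where ranges overlapped little.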

Additional observations from a re-analysis of the deposited data

Results flagged for a closer look

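In 8 of the 35 DNA replication genes with reads in graft BM-MSCs, 1 of the 4 graft libraries lay so far above the rest that its gap to the next, divided by the range, passed Dixon's 95% critical value for 4 samples. Chance passes it in about 1 of 20 groups of continuous values, a rate that does not apply to genes with zeros: where the other 3 libraries are at 0 the ratio is 1 by construction. Graft BM-MSC 4 was the high library in 5 of them, *Orc1* (69.9 normalized counts), *Pola1* (55.2), *Pola2* (580.0), *Pole* (53.5) and *Rfc5* (314). *Mcm10* was high in graft BM-MSC 2 (186), *Gins3* in graft BM-MSC 1 (241) and *Rfc4* in graft BM-MSC 3 (314). In 7 of the 8 the other 3 libraries had no read, and for *Pola2* they had 0, 5.06 and 12.1. Graft BM-MSC 4 was also the graft library with the fewest genes at 0 (16.9% of the genes tested).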

How the results depend on the processing

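Of the 37 genes, 5 passed between grafts and P-SSCs (the first comparison here), 5 between grafts and BM-MSCs (the second) and 1 between P-SSCs and BM-MSCs (the third). Of the 13644 genes tested, 2464, 1046 and 1248 passed. With 1 library left out at a time the counts of the 37 ran from 2 to 6, 2 to 9 and 0 to 1. Those of all genes ran from 1583 to 3005, 476 to 1043 and 917 to 1203. The counts of the 37 were 2 without P-SSC 1, P-SSC 2+5 or P-SSC 4 and 3 without graft BM-MSC 3 in the first, 2 without BM-MSC 3 and 9 without graft BM-MSC 2 or graft BM-MSC 4 in the second, and 0 without BM-MSC 2+4, BM-MSC 3 or P-SSC 1 in the third. The counts of these genes that did not overlap ran from 7 to 11 (11 without P-SSC 4), 18 to 24 and 21 to 28, against 7, 18 and 21 with all libraries. Of all genes, 19.7% to 24.3%, 17.9% to 19.3% and 19.2% to 23.6% did not overlap with 1 library left out. *Cdc6* and *Cdc45* passed in both graft comparisons with every library left out in turn, under both other pseudocounts and by edgeR and DESeq2. Both were lost in both comparisons under the replicate block, both against BM-MSCs with the GC split as covariate, and under quantile normalization *Cdc6* against P-SSCs and *Cdc45* against BM-MSCs.

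Counts over all genes tested are given in brackets. At an adjusted p under 0.01 the counts were 2, 2 and 0 (1332, 305 and 794). Fits of only the 2 groups gave 2 in the first comparison and 7 in the third (1696 and 1852). The GC split as covariate gave 2 in the first and 0 in the second (1081 and 40). The GC correction gave 3 in the second (1013). In the third comparison a pseudocount of 5 or a mean of at least 100 gave 2 each (1366, and 896 of 9546). There quantile normalization gave 4 (1533), and the libraries with GC-rich genes low gave 5 (2040). edgeR gave 2 in the first (1531), and DESeq2 gave 9 in the second and 5 in the third (1947 and 1515). With the replicate number as a block, with or without the GC correction, limma called 0 of the 37 in each comparison, with 6, 15 and 3 at an unadjusted p under 0.05 under the plain replicate block, and 269, 3 and 54 of all genes. The labels do not say whether libraries of the same number come from the same mouse. Deviations of such libraries from the group means correlated at -0.0191 to 0.0295 over genes, which does not settle it. The cause of these changes was not tested. No gene that passed in a comparison changed sign under any alternative. Values that passed neither before nor after changed sign in 114 combinations of gene, comparison and alternative. With 3 or 4 libraries a group and zeros in graft libraries, differences of several log2 units could miss the threshold.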
